A study of Gallus gallus with 8 samples.

Results

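ASTL, AGR2, UPK1B, SPDEF, BHLHA15 and CREB3L1 are 6 genes best known from cells that secrete proteins or line a moist surface. They were taken by symbol from a table of 24356 chick genes, and all 6 were found. Their levels were compared between cells labelled by an otic enhancer and cells labelled by an epibranchial enhancer. The genes were selected on this same difference in level between the 2 groups of libraries, so their levels and fold changes are described here without a test, and tests are given only for other genes.

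The otic placode is the patch of head ectoderm that forms the inner ear, and the epibranchial placodes, which lie beside it next to the pharyngeal arches, contribute sensory neurons to cranial ganglia. Proteins bound for the cell surface or the outside are folded in the endoplasmic reticulum by chaperones and disulfide isomerases. When unfolded protein builds up there, a set of sensors raises the amount of this folding machinery, which is the unfolded protein response. In the mouse, Agr2 is a disulfide isomerase of the endoplasmic reticulum needed for intestinal mucin, Spdef is an ETS transcription factor of goblet cell maturation, and Bhlha15, also called Mist1, is a basic helix-loop-helix factor of acinar cells. ASTL is an astacin-type metalloprotease that in mammalian eggs cuts the zona protein ZP2 after fertilization, and UPK1B is a tetraspanin of the plaques that cover the mammalian bladder lining. CREB3L1 is a transcription factor anchored in the endoplasmic reticulum membrane and released from it by cleavage.

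The bulk RNAseq data comprised 2 groups of 4 libraries, each library made from 2000 sorted cells. In both groups the reporter plasmid was introduced by electroporation into chick embryos in the egg, at ss3-5 (somite stage; the study's methods give a range that ends 1 stage later) and collected at ss18-21. The first group received the plasmid Lmx1aE1-EGFP, in which an enhancer of Lmx1a active in the otic placode drives EGFP, and the second received Sox3U3-EGFP, with an epibranchial enhancer of Sox3. EGFP+ live cells were sorted from dissociated tissue, whole heads in the study's methods and the ear region in its results text, so each library holds whatever cells the enhancer and the gate admitted, and no library of unelectroporated cells was part of the comparison.

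Library totals ranged from 6559872 to 45183366 counts, and 3 counts were worth between 0.0655 and 0.455 CPM, a gene's counts scaled to a common library total (by TMM). The 4 deeper libraries, Lmx1aE1-EGFP 3 and 4 and Sox3U3-EGFP 1 and 2, had 18301140 counts or more, and the 4 shallower ones had 9640981 or fewer. Across 16861 genes tested with edgeR, 416 (2.47%) were higher in Sox3U3-EGFP past both thresholds, an adjusted p under 0.05 and a log2 fold change over 1.5, and 120 (0.712%) were higher in Lmx1aE1-EGFP past both. The p-values measure the spread between libraries that the labels number as replicates. At the adjusted p alone, 11.3% were higher in Sox3U3-EGFP and 12.1% were higher in Lmx1aE1-EGFP. The fitted median log2 fold change over all tested genes was 0.04, positive values mean higher in Sox3U3-EGFP, and rises and falls are given on the log2 scale. Among 7 tested epibranchial markers, 4 passed both thresholds in Sox3U3-EGFP, ISL1, TFAP2E, NELL1 and VGLL2. Among 13 tested otic markers, SOX8 and SOX10 passed both in Lmx1aE1-EGFP, LMX1A passed the adjusted p there with a log2 fold change of -1.25, and PAX2 was higher in Sox3U3-EGFP by 1.31.

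ASTL, AGR2 and UPK1B were each at low levels in all 4 Lmx1aE1-EGFP libraries and several times higher in all 4 Sox3U3-EGFP libraries. SPDEF and BHLHA15, the transcription factors of goblet and acinar cells, had low counts. These ran from 1 to 15 in the Lmx1aE1-EGFP libraries and from 5 to 78 in the Sox3U3-EGFP libraries. Their means were higher in Sox3U3-EGFP, but the libraries overlapped. CREB3L1 lay the other way, with its higher mean in Lmx1aE1-EGFP. In bulk libraries, fewer cells that contain a transcript and less transcript per cell cannot be told apart. For 3 of the 6 genes every Sox3U3-EGFP library was above every Lmx1aE1-EGFP library, as it was for 12.3% of all tested genes, and for 0 of the 6 the reverse held, as it did for 13.7%. The choice of the genes already used these counts.

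ASTL (ENSGALG00000037220) had 6.55, 6.36, 5.73 and 9.35 CPM in Lmx1aE1-EGFP libraries 1 to 4, from 50, 42, 138 and 207 counts. In the Sox3U3-EGFP group, libraries 1 to 4 had 119, 93.3, 93.7 and 83.6 CPM, from 5443, 1726, 892 and 826 counts. The lowest Sox3U3-EGFP library was thus 8.94 times the highest Lmx1aE1-EGFP library, and library 1, the deepest of all, held the top value. The means were 7.0 ± 1.61 and 97.3 ± 15.0 CPM (SD, n = 4 each), a 13.9-fold difference and a fitted log2 fold change of 3.78 (SE 0.18). ASTL had the third largest fitted rise of all tested genes, as a description of a gene chosen for it.

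AGR2 (ENSGALG00000010825) had 4.45, 6.67, 5.44 and 9.17 CPM in the Lmx1aE1-EGFP libraries. In the Sox3U3-EGFP libraries it had 53.6, 53.8, 79.1 and 140 CPM. The groups were 5.84-fold apart at their nearest libraries, and Sox3U3-EGFP library 4 stood well above the other 3 of its group. The means were 6.43 ± 2.04 and 81.6 ± 40.7 CPM (SD, n = 4 each), and the fitted log2 fold change was 3.63 (SE 0.39). It was 2.85 in the 4 deeper libraries and 4.31 in the 4 shallower ones, which include Sox3U3-EGFP library 4.

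UPK1B (ENSGALG00000015079) had 9.95, 8.94, 12.3 and 12.3 CPM in the Lmx1aE1-EGFP libraries. It had 77.0, 65.5, 86.3 and 92.7 CPM in the Sox3U3-EGFP libraries. Both groups were tight, and the lowest Sox3U3-EGFP library was 5.31 times the highest Lmx1aE1-EGFP library. The means were 10.9 ± 1.71 and 80.4 ± 11.8 CPM (SD, n = 4 each), a 7.39-fold difference with a fitted log2 fold change of 2.86 (SE 0.16).

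**Figure D1:**
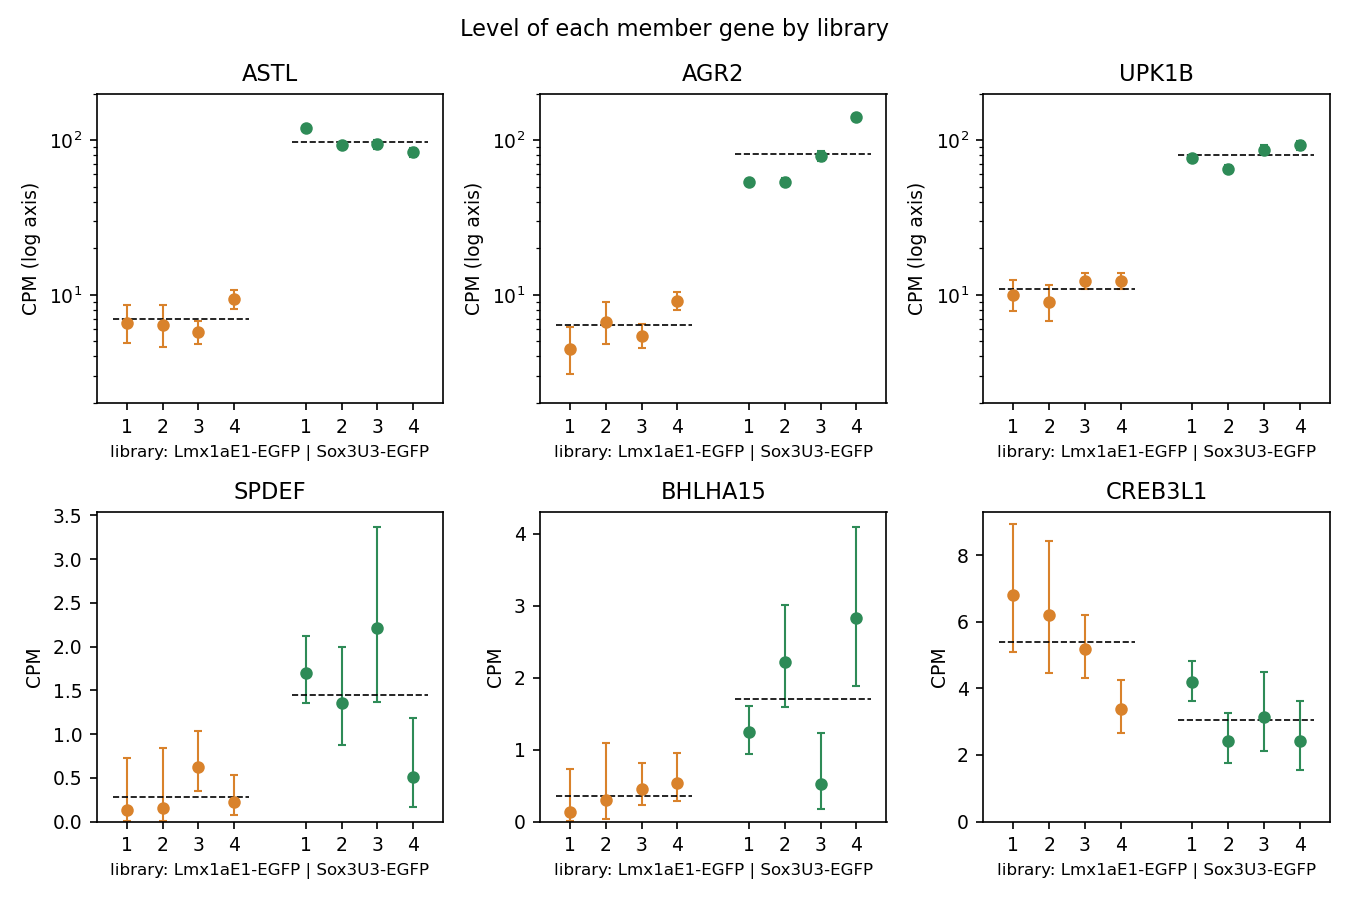
Level of each of the 6 genes in CPM (vertical axis, logarithmic in the upper panels and linear from 0 in the lower panels) in the 4 Lmx1aE1-EGFP libraries (orange) and the 4 Sox3U3-EGFP libraries (green). Points are libraries, bars are 95% Poisson intervals for counting error and dashed lines are group means; ASTL, AGR2 and UPK1B separate without overlap, and SPDEF, BHLHA15 and CREB3L1 overlap.

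SPDEF (ENSGALG00000002792) was counted 1, 1, 15 and 5 times in the Lmx1aE1-EGFP libraries, or 0.131, 0.152, 0.623 and 0.226 CPM. In the Sox3U3-EGFP libraries it was counted 78, 25, 21 and 5 times, or 1.70, 1.35, 2.21 and 0.506 CPM. Sox3U3-EGFP library 4, the highest for AGR2, was the lowest of its group for SPDEF and fell below Lmx1aE1-EGFP library 3. The 95% Poisson interval of its 5 counts reached from 1.62 to 11.7 counts. SPDEF did not pass the filter on low counts, and a fit without the filter gave a log2 fold change of 2.09 (SE 0.59), which was 2.89 without Lmx1aE1-EGFP library 3.

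BHLHA15 (ENSGALG00000031306) was counted 1, 2, 11 and 12 times in the Lmx1aE1-EGFP libraries, or 0.131, 0.303, 0.457 and 0.542 CPM. It was counted 57, 41, 5 and 28 times in the Sox3U3-EGFP libraries, or 1.24, 2.22, 0.525 and 2.83 CPM. Here library 3 was the low one of the Sox3U3-EGFP group, just under the highest Lmx1aE1-EGFP library, so SPDEF and BHLHA15 did not share their low library. The fit without the filter, which this gene did not pass either, gave a log2 fold change of 2.03 (SE 0.57).

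CREB3L1 (ENSGALG00000008393) had 6.81, 6.21, 5.19 and 3.39 CPM in the Lmx1aE1-EGFP libraries. It had 4.19, 2.43, 3.15 and 2.43 CPM in the Sox3U3-EGFP libraries. The groups overlapped through Lmx1aE1-EGFP library 4 and Sox3U3-EGFP library 1. The fitted log2 fold change was -0.78 (SE 0.30), opposite in sign to those of the other 5 genes. It was -0.37 in the 4 deeper libraries and -1.22 in the 4 shallower ones.

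Within a library, the ratio of 2 genes' counts does not depend on the library total. UPK1B reads per ASTL read numbered 1.52, 1.40, 2.14 and 1.32 in the Lmx1aE1-EGFP libraries and 0.648, 0.702, 0.922 and 1.11 in the Sox3U3-EGFP libraries. All 4 values were lower in Sox3U3-EGFP, though some 95% counting intervals overlapped. That of Sox3U3-EGFP library 4 (1.01 to 1.22) overlapped those of Lmx1aE1-EGFP libraries 1 (1.05 to 2.22), 2 (0.93 to 2.14) and 4 (1.10 to 1.59). That of Sox3U3-EGFP library 3 (0.837 to 1.01) overlapped that of Lmx1aE1-EGFP library 2. AGR2 reads per ASTL read numbered 0.680, 1.05, 0.949 and 0.981 in the Lmx1aE1-EGFP libraries and 0.451, 0.577, 0.844 and 1.67 in the Sox3U3-EGFP libraries. The Sox3U3-EGFP libraries therefore lay on both sides of the Lmx1aE1-EGFP range, and those of libraries 1 and 4 had intervals (0.430 to 0.473 and 1.53 to 1.83) that were far apart. AGR2 reads per UPK1B read were likewise highest in Sox3U3-EGFP library 4, at 1.51 against 0.696 to 0.916 in the other 3.

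**Figure D2:**
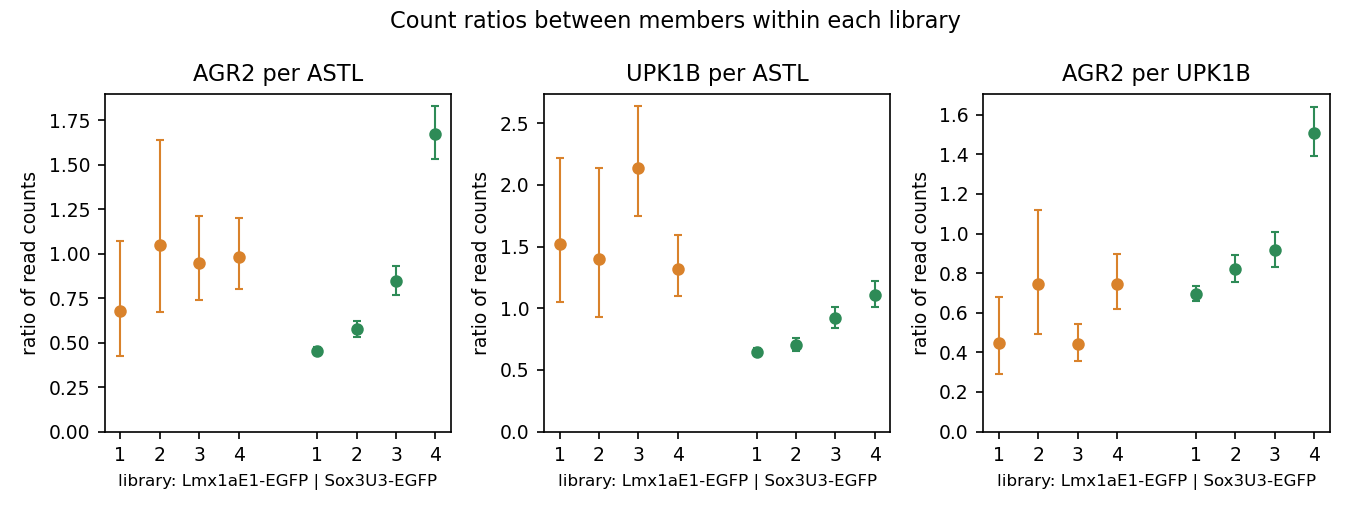
Ratio of read counts between pairs of ASTL, AGR2 and UPK1B (vertical axis, from 0) in each Lmx1aE1-EGFP (orange) and Sox3U3-EGFP (green) library, with 95% intervals for counting error. UPK1B per ASTL was lower in all 4 Sox3U3-EGFP libraries, and AGR2 per ASTL ran from 0.451 to 1.67 among them.

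The spread within groups, given here as a description, set AGR2 apart from ASTL and UPK1B. The SD of its log2 CPM was 0.44 in Lmx1aE1-EGFP and 0.65 in Sox3U3-EGFP. These were larger than in 95.8% and 97.0% of the 500 tested genes nearest to it in mean level over all 8 libraries. AGR2, ASTL and UPK1B lay below that mean in Lmx1aE1-EGFP and above it in Sox3U3-EGFP. The percentages are therefore not against genes of the same level within a group. UPK1B had an SD of 0.23 and 0.22, larger than in 65.5% and 49.5% of its like-level genes. ASTL had an SD of 0.30 and 0.21, with 84.2% and 43.9% of like-level genes below it. The biological coefficient of variation estimated by edgeR was 0.343 for AGR2, 0.169 for ASTL and 0.158 for UPK1B.

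Marker lists of head tissues were read beside the shares of all tested genes past both thresholds, 2.47% in Sox3U3-EGFP and 0.712% in Lmx1aE1-EGFP. Some lists were higher in Sox3U3-EGFP, as ASTL, AGR2 and UPK1B were, and others were not. Of 15 tested surface ectoderm and epidermis markers, 10 (66.7%) passed both thresholds in Sox3U3-EGFP. Among these were KRT7, KRT18 and KRT19 (keratins of simple epithelia), CDH1, EPCAM and CLDN1 (adhesion and junction proteins) and TP63. At the adjusted p, 1 marker was higher in Lmx1aE1-EGFP, and the lowest log2 fold change of the list was -1.11. The list's summed level was 903 to 1240 CPM in Lmx1aE1-EGFP and 4020 to 5100 CPM in Sox3U3-EGFP, with the top value of each group in library 4. Of 12 tested pharyngeal endoderm markers, 5 passed both in Sox3U3-EGFP, NKX2-3, NKX2-5, NKX2-6, GATA6 and FOXA2. The FOXA2 call was lost without Sox3U3-EGFP library 1, at 0.85 (edgeR adjusted p = 0.298). The list summed to 65.9 to 118 CPM against 128 to 306 CPM. SOX17, from the same list, was between 0 and 0.840 CPM in all libraries, and NKX2-1, also listed, was between 0 and 1.86 CPM. The Sox3U3-EGFP library with the highest endoderm sum was library 1, at 306 CPM. It had the top ASTL level of its group and, with library 2, its lowest AGR2 level. The Lmx1aE1-EGFP library with the highest endoderm sum was library 4, at 118 CPM. It had the top ASTL and AGR2 levels of its group. Neural crest markers mostly went the other way: of 12 tested, 6 were higher in Lmx1aE1-EGFP past both thresholds, among them FOXD3, PAX7 and TFAP2B. At the adjusted p alone 9 were higher there and 1 was higher in Sox3U3-EGFP. The list, which shares ETS1 with the ETS factors below, summed to 1280 to 1460 CPM against 488 to 553 CPM. Of 9 tested mesenchyme markers, 5 passed the adjusted p in Lmx1aE1-EGFP, of which TWIST1 passed both, with overlapping sums of 1030 to 1190 and 778 to 1420 CPM. The heart muscle list shares NKX2-5 with the endoderm list. Of its 12 tested markers, 2 passed both in Sox3U3-EGFP and 1 in Lmx1aE1-EGFP, with a median log2 fold change of 1.16. Its sums overlapped, at 264 to 313 CPM in Lmx1aE1-EGFP and 147 to 333 CPM in Sox3U3-EGFP. Of 11 tested blood and endothelium markers, 0 passed both and 1 passed the adjusted p, in Sox3U3-EGFP. That list summed to 317, 271, 69.5 and 1030 CPM in Lmx1aE1-EGFP libraries 1 to 4, and to 460, 346, 181 and 199 CPM in Sox3U3-EGFP. Of 7 tested neural tube markers, 1 passed both and 2 passed the adjusted p, in Lmx1aE1-EGFP. The neural tube list summed to 176 to 209 CPM against 104 to 150 CPM. SOX10, counted above as otic, is also a gene of neural crest. The part of any of these cells in the levels of the secretory genes was not tested.

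To place the 6 genes among their relatives and partners, 10 lists covering 262 symbols were examined, of which 202 were found by name in the table and 179 were tested. In all, 18 list genes (10.1%) rose past both thresholds in Sox3U3-EGFP against 2.47% of all genes. In Lmx1aE1-EGFP 0 were past both, against 0.712% of all genes, and 19 (10.6%) passed the adjusted p alone, against 12.1%. At the adjusted p alone 58 list genes (32.4%) were higher in Sox3U3-EGFP, against 11.3% of all genes. Over the 179 the log2 fold changes had a median of 0.30. The lists were chosen with earlier results of these data known, so these shares describe the lists and are not a test of them. With DESeq2 and with limma-voom the numbers past both were 17 and 19 in Sox3U3-EGFP and again 0 in Lmx1aE1-EGFP, where 0 were also past the fold threshold at an unadjusted edgeR p under 0.05.

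**Figure D3:**
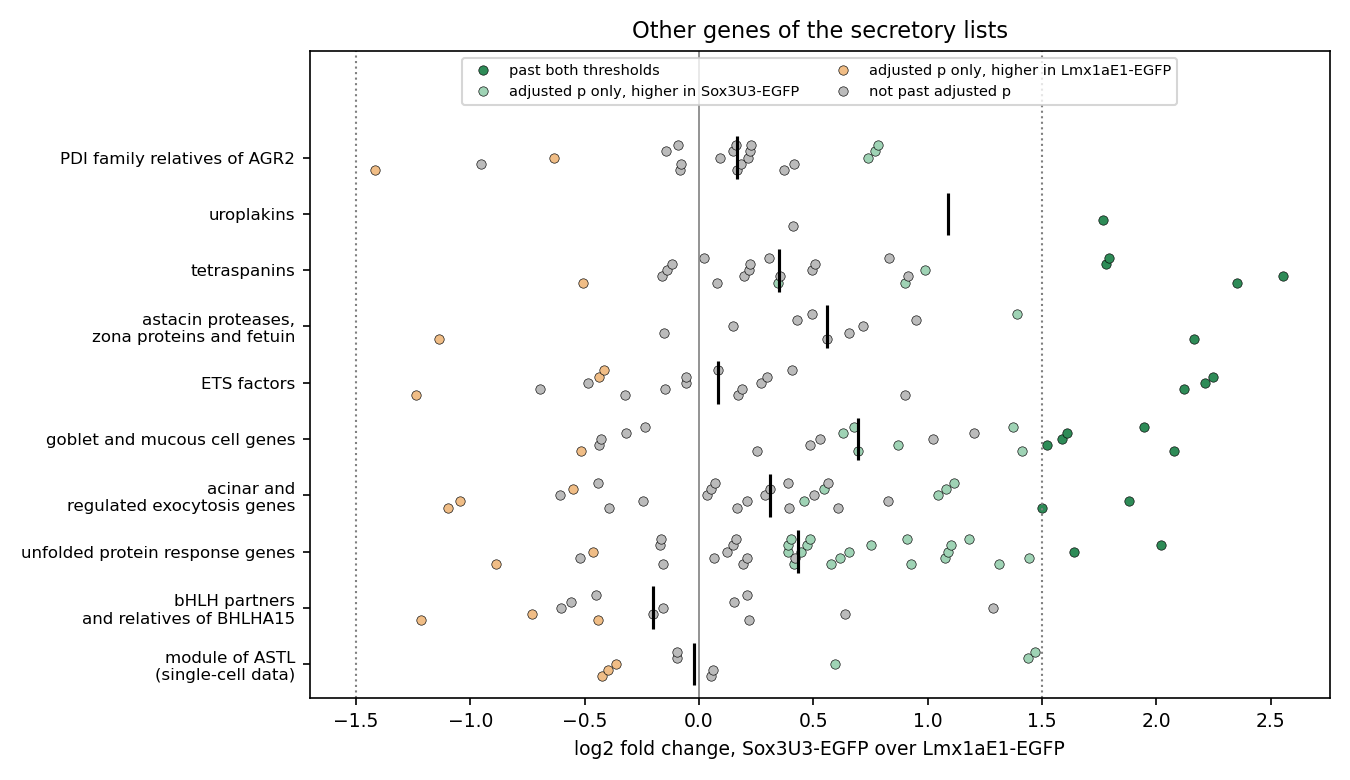
Log2 fold change (horizontal axis, Sox3U3-EGFP over Lmx1aE1-EGFP) of every tested gene of the 10 lists, without the 6 chosen genes; each point is a gene, colours give the edgeR call, black bars are list medians and dotted lines mark 1.5 in each direction. The 18 genes past both thresholds all lie on the Sox3U3-EGFP side and belong to 7 of the lists.

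Of 20 tested disulfide isomerase relatives of AGR2, 3 (15%) passed the adjusted p in Sox3U3-EGFP and 2 (10%) passed it in Lmx1aE1-EGFP. These shares were near those of all tested genes, 11.3% and 12.1%. The other 15 did not pass, and the median log2 fold change was 0.17. P4HB, the archetypal disulfide isomerase, rose by 0.78 (SE 0.11, edgeR adjusted p = 0.000113), from 1228 to 2111 CPM. PDIA6 rose by 0.77 (edgeR adjusted p = 0.000195), and PDIA4 by 0.74 (edgeR adjusted p = 0.0338), a call that was lost without Sox3U3-EGFP library 3 or any 1 of the Lmx1aE1-EGFP libraries, with adjusted p between 0.0611 and 0.0844. TXNDC5 fell by 0.63 (edgeR adjusted p = 0.00265). AGR3, the closest relative of AGR2 and its neighbour on the chromosome, did not pass: it had 2.62, 3.49, 5.90 and 1.85 CPM in Lmx1aE1-EGFP and 1.24, 1.41, 2.63 and 2.23 CPM in Sox3U3-EGFP, a log2 fold change of -0.95 (SE 0.40, edgeR adjusted p = 0.101; 0.0137 with limma-voom and 0.0407 without Lmx1aE1-EGFP library 4).

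The unfolded protein response list moved more broadly. Of 34 tested genes, 21 (61.8%) passed the adjusted p in Sox3U3-EGFP and 2 in Lmx1aE1-EGFP, CRELD1 and EDEM1, with a median log2 fold change of 0.43. DERL3, which helps to move misfolded proteins out of the endoplasmic reticulum, rose by 1.64 (SE 0.22, edgeR adjusted p = 0.000375), and CHAC1, a glutathione-degrading enzyme induced by this response, rose by 2.02 (SE 0.30, edgeR adjusted p = 0.000638). XBP1, the transcription factor spliced by the sensor IRE1, rose by 0.91 (SE 0.14, edgeR adjusted p = 0.000206). The abundant chaperone HSPA5, also called BiP, had 1090, 1340, 1260 and 1300 CPM in Lmx1aE1-EGFP and 2290, 2680, 2360 and 5060 CPM in Sox3U3-EGFP. HSP90B1 had 1770, 1980, 1830 and 2060 CPM in Lmx1aE1-EGFP and 3160, 3890, 3610 and 6670 CPM in Sox3U3-EGFP. Both chaperones rose, by 1.31 and 1.18 (edgeR adjusted p = 0.0111 and 0.00589), with library 4 again the highest. CREB3L2, a close relative of CREB3L1, rose by 0.62 (edgeR adjusted p = 0.0161), against the sign of CREB3L1, while ATF4, the translation-controlled factor of the response, had a log2 fold change of 0.06 and did not pass.

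Sox3U3-EGFP library 4 had the top AGR2, UPK1B and BHLHA15 levels of its group and the lowest ASTL and SPDEF levels. It was the highest of its group for 21 (61.8%) of the 34 tested unfolded protein response genes, against 30.8% of all tested genes. It was the highest for 9 of the 20 disulfide isomerase relatives, 12 of the 22 tetraspanins and 11 of the 27 exocytosis genes. The same held for 5 of 11 genes of the astacin list, 7 of 19 ETS factors, 5 of 13 relatives of BHLHA15 and 1 of 2 uroplakins. For goblet and mucous cell genes it was 6 of 21 (28.6%), under the share of all tested genes. For the single-cell module of ASTL, described below, it was 2 of 10 (20%), also under that share. In Lmx1aE1-EGFP, library 4 was the highest for AGR2, ASTL and BHLHA15 and for 15 (44.1%) of the 34, against 30.5% of all tested genes. It was the lowest of that group for CREB3L1, and UPK1B was at 12.3 CPM in both libraries 3 and 4. Without Sox3U3-EGFP library 4, the count at the adjusted p in Sox3U3-EGFP was 16 of the response genes in place of 21, and DERL3 stood at 1.38, under the fold threshold. In the 4 deeper libraries alone it was 12, and DERL3 and CHAC1 stood at 1.15 and 1.25.

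**Figure D4:**
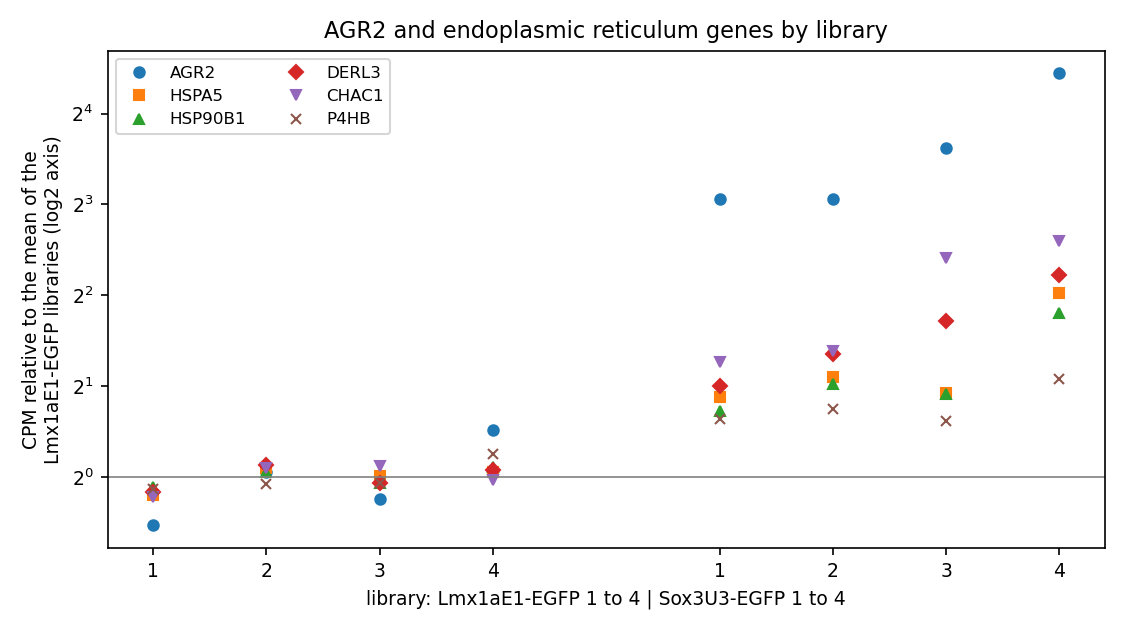
AGR2 and 5 endoplasmic reticulum genes in each library, as CPM divided by the mean of the Lmx1aE1-EGFP libraries (vertical axis, log2 scale). Points are libraries; all 6 genes are at their highest in Sox3U3-EGFP library 4, where AGR2 reached 140 CPM and HSPA5 5060 CPM.

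UPK1B belongs to both the uroplakin and the tetraspanin families. Of the other uroplakins, 2 were tested: UPK3B rose by 1.77 (SE 0.56, edgeR adjusted p = 0.0304), from only 0.470 to 1.48 CPM, and UPK3A had a log2 fold change of 0.41 and did not pass. The UPK3B call was lost without Lmx1aE1-EGFP library 2, 3 or 4 or Sox3U3-EGFP library 4, with adjusted p between 0.0506 and 0.108. Tetraspanins are membrane proteins that organise other surface proteins, and 22 of them besides UPK1B were tested. In Sox3U3-EGFP 4 (18.2%) rose past both thresholds, against 2.47% of all tested genes, and 3 more passed the adjusted p alone. With these, 7 (31.8%) passed it there, against 11.3%. In Lmx1aE1-EGFP 1 (4.55%), TSPAN4, passed it, against 12.1%. TSPAN13 had 74.2, 59.7, 62.1 and 64.9 CPM in Lmx1aE1-EGFP and 266, 199, 214 and 225 CPM in Sox3U3-EGFP, a rise of 1.79 on the log2 scale (SE 0.12, edgeR adjusted p = 2.29e-08). CD82, known as a suppressor of cell motility, rose by 1.78 (SE 0.15, edgeR adjusted p = 4.50e-07), from 42.3 to 146 CPM. TSPAN33 rose by 2.35 (edgeR adjusted p = 1.98e-05) and TSPAN16 by 2.56 (edgeR adjusted p = 0.00842), the latter reaching 36.3 CPM in Sox3U3-EGFP library 4 against 12.1 to 17.7 CPM in the other 3.

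In the list of astacin proteases, zona proteins and fetuin, 11 genes were tested. Of these, 1 (9.09%) passed both thresholds in Sox3U3-EGFP, against 2.47% of all tested genes. At the adjusted p 2 (18.2%) were higher there, against 11.3%, and 1 (9.09%) was higher in Lmx1aE1-EGFP, against 12.1%. TLL2, a tolloid-like astacin protease, rose in Sox3U3-EGFP with a log2 fold change of 2.17 (SE 0.22, edgeR adjusted p = 3.78e-06), from 3.78 to 17.2 CPM. ZP4, an egg-coat protein, passed the adjusted p alone at 1.39 (edgeR adjusted p = 0.0243) with only 0.705 and 1.94 CPM, and PCOLCE2 passed it in Lmx1aE1-EGFP. ZP2, the substrate of ASTL in mammals, had 1.68 and 2.79 CPM and did not pass. FETUB, the blood protein that inhibits ASTL in the mouse, was at 0.909 CPM or less in every library and was too low to test.

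The ETS relatives of SPDEF divided by member. Of 19 tested, 3 (15.8%) rose past both thresholds in Sox3U3-EGFP, against 2.47% of all tested genes. They were ELF3 at 2.12 (SE 0.24, edgeR adjusted p = 9.57e-06), EHF at 2.25 (SE 0.35, edgeR adjusted p = 0.000206) and FEV at 2.22 (SE 0.39, edgeR adjusted p = 0.000634). At the adjusted p 3 (15.8%) were higher in Sox3U3-EGFP and 3 (15.8%) in Lmx1aE1-EGFP, against 11.3% and 12.1% of all tested genes. ELF3 and EHF are factors of epithelial cells, and FEV is best known from serotonin neurons. ELF3 had 6.28, 4.39, 4.65 and 4.47 CPM in Lmx1aE1-EGFP and 18.5, 20.4, 15.2 and 31.5 CPM in Sox3U3-EGFP, with no overlap. In Lmx1aE1-EGFP, ETS1, a factor of neural crest and endothelium, was higher by the adjusted p alone with a log2 fold change of -1.24 (edgeR adjusted p = 0.000371), as were GABPA at -0.44, a call lost in the 4 deeper libraries (edgeR adjusted p = 0.134), and ELF2 at -0.41. The median of the family was 0.08, near that of all genes.

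The goblet and mucous cell list held 47 symbols, of which 26 were found by name and 21 were tested. MUC2, MUC5AC, MUC5B, TFF3, FCGBP and ATOH1 were among those not found by name. In Sox3U3-EGFP 5 (23.8%) rose past both thresholds, against 2.47% of all tested genes. At the adjusted p 11 (52.4%) were higher there, against 11.3%, and 1 (4.76%) was higher in Lmx1aE1-EGFP, against 12.1%. GCNT1, which branches O-linked sugar chains, rose by 2.08 (SE 0.17, edgeR adjusted p = 2.89e-07), from 8.31 to 35.4 CPM, and GALNT3, which starts such chains, rose by 1.59 (edgeR adjusted p = 1.03e-05), from 11.2 to 33.1 CPM. SCIN, a gene of actin severing in secretory cells, rose by 1.95 (edgeR adjusted p = 4.06e-05), and BPIFB2, of a family of secreted airway proteins, by 1.52 (edgeR adjusted p = 5.26e-05). FOXA2 passed at 1.61 (edgeR adjusted p = 0.0410) although its libraries overlapped, with 0.374 to 1.21 CPM against 4.21, 1.13, 0.945 and 1.62 CPM. Without Sox3U3-EGFP library 1 its log2 fold change was 0.85 (edgeR adjusted p = 0.298), and without Lmx1aE1-EGFP library 1, 3 or 4 the call was lost as well. GALNT3 and BPIFB2 stood at 1.45 and 1.36 without Lmx1aE1-EGFP library 3, and BPIFB2 at 1.45 without Sox3U3-EGFP library 2, under the fold threshold. A further 6 genes passed the adjusted p alone in Sox3U3-EGFP, including GALNT6 at 1.37 and ERN2, the epithelial form of the IRE1 sensor, at 0.63, and C1GALT1 passed it in Lmx1aE1-EGFP at -0.52, though not in the 4 deeper libraries (edgeR adjusted p = 0.0755). MUC6, a secreted gel-forming mucin, had 7.66 and 5.56 CPM and did not pass, and the trefoil factor TFF2 was at 1.14 CPM or less in every library.

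The setting of BHLHA15 is acinar cells and regulated exocytosis, and 27 partners known from it were tested. In Sox3U3-EGFP 2 (7.41%) rose past both thresholds, against 2.47% of all tested genes. At the adjusted p 7 (25.9%) were higher there, against 11.3%, and 3 (11.1%) were higher in Lmx1aE1-EGFP, against 12.1%. The other 17 did not pass. STX3, a syntaxin of the apical membrane, rose by 1.88 (edgeR adjusted p = 0.00540) with overlapping libraries, from 1.23 to 4.80 CPM, and the call was lost in the 4 deeper libraries at 1.08 (edgeR adjusted p = 0.247). CPLX1, a regulator of vesicle fusion, sat at the fold threshold, at 1.5 (edgeR adjusted p = 0.0107), and stood between 1.31 and 1.48 without any 1 of 5 libraries, Lmx1aE1-EGFP 1 or 3 or Sox3U3-EGFP 1, 2 or 4. AMY1A, an amylase, and SYTL4, a granule-docking protein, passed the adjusted p alone at 1.08 and 1.05. GJB1, the connexin gene that Mist1 activates in mouse acinar cells, went the other way at -1.05 (edgeR adjusted p = 0.00157), and RAB26, another such target, had a log2 fold change of -0.24 and did not pass. PTF1A, the pancreatic acinar factor, had means of 0.0898 and 0.181 CPM. Of 13 tested partners and relatives of BHLHA15, 0 passed the adjusted p in Sox3U3-EGFP, against 11.3% of all tested genes by edgeR. DESeq2 and limma-voom also gave 0, and 1 gene, NEUROD6, had an unadjusted edgeR p under 0.05. In Lmx1aE1-EGFP 3 (23.1%) passed the adjusted p alone, against 12.1%. They were ID2, ID4 and ATOH8, at -0.44, -1.22 and -0.73. The ID2 call was lost in the 4 deeper libraries, at -0.36 (edgeR adjusted p = 0.108), and with the replicate number as a block (edgeR adjusted p = 0.0603).

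The study placed ASTL in a gene module of its single-cell data, and the other 10 genes of that module were read here. The modules were picked in part with genes from these same libraries, so they are not independent of them. By edgeR 0 of the 10 genes were past both thresholds in either direction (0 also at the unadjusted p with the same fold threshold, and 0 with DESeq2 and limma-voom). Of all tested genes 2.47% were past both in Sox3U3-EGFP and 0.712% in Lmx1aE1-EGFP, so 0 of 10 genes is near these shares. Leaving out 1 library gave 0 to 2 past both in Sox3U3-EGFP, and the other alternatives gave 0 to 1. At the adjusted p alone 3 (30%) were higher in Sox3U3-EGFP, against 11.3% of all tested genes: ASS1 at 1.47, CXCL14 at 1.44 and GPX4 at 0.60. In Lmx1aE1-EGFP 3 (30%) were higher, against 12.1%: FAM162A, MTFP1 and NDFIP1. With 1 library left out these counts were 3 in Sox3U3-EGFP and 1 to 2 in Lmx1aE1-EGFP. Under the other alternatives they were 2 to 3 and 0 to 3. GPX4 stood at 0.35 in the 4 deeper libraries and did not pass (edgeR adjusted p = 0.14). The median log2 fold change was -0.02.

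The genes nearest in pattern were found as those with the smallest root-mean-square difference in log2 CPM over the 8 libraries, each gene centred on its own mean, among 11765 named genes. The other chosen genes were left out of these sets. The distance includes the difference between the groups, on which the chosen genes were selected. For UPK1B the closest were PLEKHS1 at 0.25, FGF8 at 0.26, PDLIM1 at 0.27, TRABD2A at 0.28 and IFI27L1 at 0.28. FGF8 is a signal of the pharyngeal region, and it was also in the sets of 5 for ASTL (0.56) and AGR2 (0.46). For ASTL the others were KCNJ16, a potassium channel, at 0.43, CYP26A1, which degrades retinoic acid, at 0.45, and the transcriptional regulators RIPPLY3 at 0.49 and TLX1 at 0.53. For AGR2 the closest was MMP9, a secreted gelatinase, at 0.43, with 4.06, 3.94, 4.74 and 8.36 CPM in Lmx1aE1-EGFP and 24.1, 33.5, 34.8 and 64.8 CPM in Sox3U3-EGFP. MMP9 had its top value in library 4 of each group, as AGR2 did, but it was picked for likeness to AGR2 over these same libraries. KCNJ16 (0.46), NKX2-6 (0.47), a homeobox gene of pharyngeal endoderm, and CYP26A1 (0.49) completed the AGR2 set. AGR2 and ASTL lay 0.54 from each other and 0.53 and 0.54 from UPK1B. AGR2 and UPK1B were thus nearer to ASTL than FGF8 was. For UPK1B, ASTL and AGR2 would have ranked only 78 and 73.

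The 2 annotated genes on each side of each of the 6 were read from the gene order of the GRCg7b assembly, and 15 of the 24 positions held a gene that was tested. Of these, 3 rose past both thresholds in Sox3U3-EGFP, as 2.47% of all tested genes did. Another 3 were higher in Lmx1aE1-EGFP by the adjusted p alone, as 12.1% of all tested genes were, and 9 did not pass. TSPAN13, next to AGR2, is the tetraspanin described above, and AHR and BZW2, also beside AGR2, had log2 fold changes of -0.21 and 0.10 and did not pass. SYT13, a synaptotagmin next to ASTL, rose by 1.74 (SE 0.47, edgeR adjusted p = 0.0131) at low levels of 0.675 and 2.31 CPM, and the adjusted p was 0.0558 without Sox3U3-EGFP library 1. LARGE2, a sugar transferase of the Golgi beside CREB3L1, rose by 1.78 (SE 0.14, edgeR adjusted p = 1.64e-07), from 30.0 to 103 CPM, while CREB3L1 itself had a value of -0.78 and PHF21A, between the 2, had a value of 0.02. PRDM11 beside ASTL and IGSF11 beside UPK1B had log2 fold changes of 0.01 and -0.01. Beside SPDEF, RPS10 and SNRPC were higher in Lmx1aE1-EGFP, at -0.61 and -0.30, and beside BHLHA15, BRI3 was, at -0.57. The BRI3 call was lost in the 4 deeper libraries (edgeR adjusted p = 0.135), and the SNRPC call under 12 alternatives (edgeR adjusted p = 0.058 to 0.241).

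**Figure D5:**
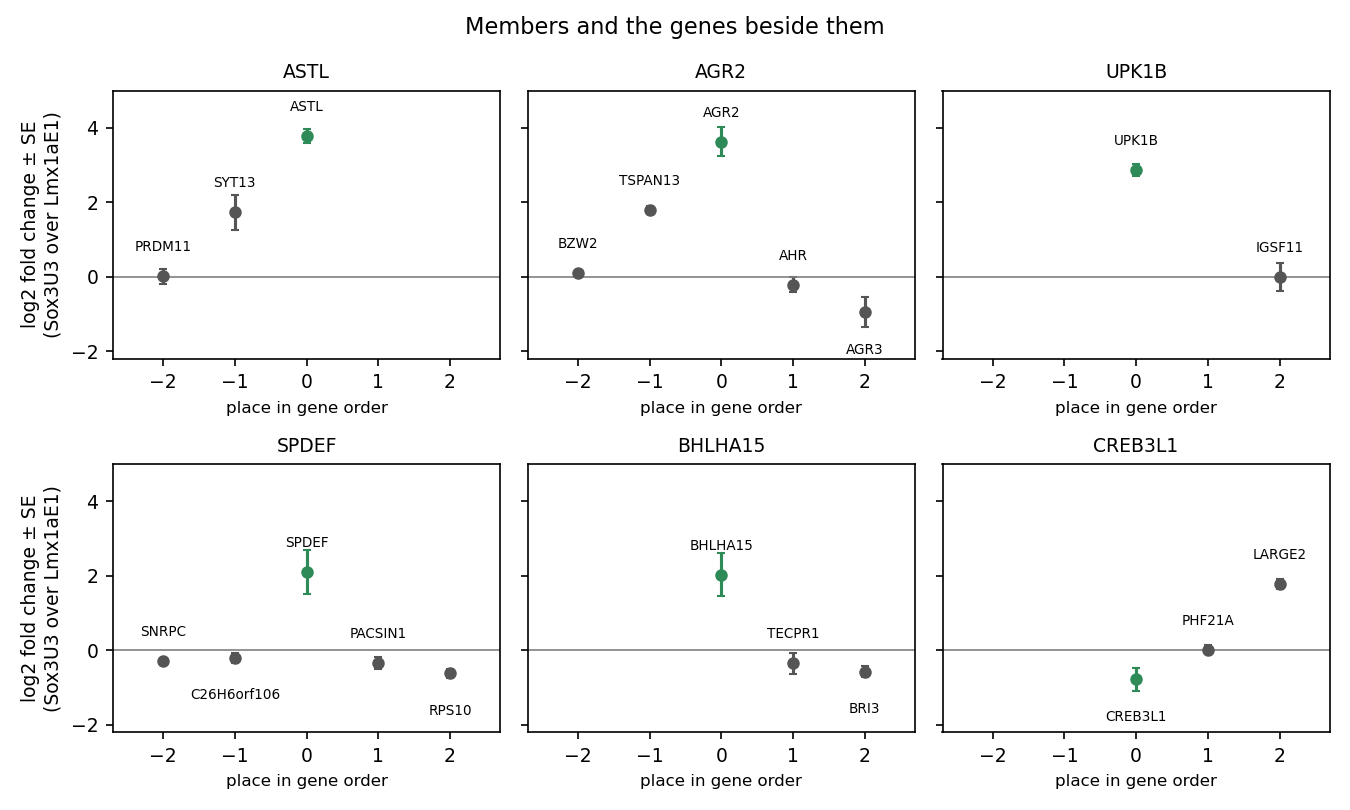
Log2 fold change with its SE (vertical axis) of the 6 chosen genes (green, position 0) and of the tested genes up to 2 places away in the GRCg7b gene order (grey). The values for SPDEF and BHLHA15 come from the fit without a filter; TSPAN13, SYT13 and LARGE2 are the neighbours past both thresholds.

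In that annotation AGR2 overlaps AHR1A, SPDEF overlaps C6orf106 and BHLHA15 overlaps LMTK2. The strand setting of the counting is not given in the sources used here, so reads of these overlapping pairs may not be separated, and the low counts of SPDEF and BHLHA15 are uncertain for this reason as well. ASTL, UPK1B and CREB3L1 overlap no other annotated gene there. ASTL and CREB3L1 lie on the same chromosome with 40 annotated genes between them, and their group means differed in opposite directions.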

How the data were processed

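Reads were 75-base pairs from low-input Nextera libraries. Per the labels and the methods, the authors ran the NF-core RNAseq pipeline at its defaults, with trimming by Trim Galore, alignment by STAR against galGal6 and counting of reads per Ensembl gene by featureCounts. The authors deposited raw counts for all 8 libraries in 1 table, and the strand setting is not given in the sources used here.

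Genes were filtered with filterByExpr, which left 16861 of 24356, scaled by the trimmed mean of M-values (TMM) and compared between groups in edgeR 4.0.16 (R 4.3.3) by its quasi-likelihood F test with robust dispersions and no other term. Benjamini-Hochberg adjustment ran over all genes tested. SPDEF and BHLHA15 did not pass the filter and were fitted without it, over 23759 genes, an alternative chosen after seeing the data. Each standard error is the fold change divided by the root of its F value. CPM use TMM-scaled totals, log2 CPM add a prior count of 2, and counting intervals are exact Poisson at 95%. They cover counting error only. The scripts were tested on simulated counts.

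The 6 genes and all lists were chosen with earlier results of these data known. Named genes are the 6, every list gene past both thresholds, up to 3 of the highest mean CPM in each list, the 2 neighbours on each side and the 5 nearest in pattern among genes with a mean of at least 10 counts. Other list genes and markers were named after their values were seen. Neighbours come from the order in RefSeq's GRCg7b annotation, whose coordinates were not used because the counts are on galGal6, and 17 of 24 matched the table. Alternatives were DESeq2 1.42.0, limma-voom (limma 3.58.1), other scaling, filters, thresholds and prior counts, the replicate number as a block, thinning to the smallest total, the deeper and the shallower libraries alone and leaving out each library. No sequence is printed.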

Additional observations from a re-analysis of the deposited data

Results flagged for a closer look

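In each group of 4 libraries, the log2 CPM of every named gene was examined for a highest or lowest library far from the rest, by the gap to its nearest neighbour as a share of the group's range. Of 167 groups examined 9 exceeded Dixon's 95% critical value, where chance alone would give about 8.3. None of the 6 chosen genes was among them.

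Within Sox3U3-EGFP, CD82 was low in library 3 (share 0.857, 120 CPM against 151 in the nearest), SCIN was low in library 4 (0.831, 28.0 against 37.3 CPM), TLL1 was low in library 2 (0.893, 4.81 against 7.66 CPM) and AHR was high in library 4 (0.845, 14.1 against 9.30 CPM). Within Lmx1aE1-EGFP, ELF3 was high in library 1 (0.841, 6.28 against 4.65 CPM), PCOLCE was low in library 2 (0.842, 3.03 against 4.84 CPM) and library 4 was the far one for P4HB (0.833, 1460 against 1170 CPM), for PDLIM1 (0.956, 35.7 against 24.9 CPM) and, as the lowest, for TSPAN6 (0.931, 209 against 236 CPM).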

How the results depend on the processing

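None of the fold changes of the 6 genes reversed under any alternative. The 4 deeper libraries alone gave 2.85 for AGR2, 2.51 for UPK1B and -0.37 for CREB3L1, and the 4 shallower ones gave 4.31, 3.24 and -1.22, with 3.10 for SPDEF. ASTL ran from 3.74 to 3.97 over its alternatives. Leaving out 1 library at a time gave 3.67 to 3.99 for ASTL, 3.23 to 3.89 for AGR2, 2.76 to 2.94 for UPK1B, 1.87 to 2.89 for SPDEF, 1.73 to 2.30 for BHLHA15 and -1.0 to -0.66 for CREB3L1.

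Genes past both thresholds and higher in Sox3U3-EGFP numbered 416, against 225 with at least 10 counts in every library (fewer genes tested), 899 at a log2 fold change over 1 and 1904 at the adjusted p alone. Those higher in Lmx1aE1-EGFP numbered 120, against 198 in the 4 shallower libraries, where the cause was not tested, and 476 and 2033 at the looser thresholds. List genes higher in Sox3U3-EGFP numbered 18, against 11, 32 and 58 under the same 3 changes. List genes higher in Lmx1aE1-EGFP numbered 0, against 6 and 19 at the looser thresholds and 1 under the replicate block (CASQ2, -1.51), after thinning (CASQ2, -1.62) and in the shallower libraries (ID4, -1.62). Leaving out 1 library gave 0 to 1, CASQ2 without Lmx1aE1-EGFP library 3 or Sox3U3-EGFP library 2 or 4 and ETS1 (-1.52) without Sox3U3-EGFP library 3.

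Deviations from the group means correlated by -0.233 to 0.046 between libraries of the same replicate number. Between libraries of different numbers they correlated by -0.155 to 0.309. These values cannot show whether libraries of the same number were prepared together. With the replicate number as a block 392 and 122 genes passed both, and ASTL was at 3.79 and AGR2 at 3.63. The SE of AGR2 was then 0.19, against 0.39 without the block, and that of ASTL was 0.19 against 0.18. Of 1403 values of the other 75 named tested genes, 1323 kept their side of the threshold, 73 lost the call, 7 gained it and 0 calls reversed, and values past no threshold changed sign 34 times, in 9 genes. At this depth 3 counts equal up to 0.455 CPM, which limits SPDEF and BHLHA15 most.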
